A study of Mus musculus with 6 samples.

Results

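A set of 10 genes of the actin cytoskeleton and its link to serum response factor (SRF) was followed across 6 expression arrays of mouse Ba/F3 cells. It held the actin genes Acta2, Actb and Actg1, the tropomyosin genes Tpm3 and Tpm4, the calponin and transgelin genes Cnn2 and Tagln2, the adhesion genes Vcl and Zyx, and the vimentin gene Vim. Every probe set annotated to exactly 1 of these symbols was a member, which gave 24 of the 22690 probe sets on the array. Of these, 3 were manufacturer control probe sets for Actb and were read apart, leaving 21. The genes were chosen by name with earlier results of these same arrays in view, among them the ratios between arrays given here. Their values are therefore a description. Counts of members past a limit or a test's threshold are given beside the share or number of all probe sets past it. For some alternative settings at the end that share is not given. None of these counts supports anything.

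Actin monomers assemble into filaments that tropomyosins coat, calponins and transgelins bundle or stabilise, and vinculin and zyxin anchor at adhesion sites. Free actin monomers hold back the cofactors of SRF, a transcription factor that binds the CArG box in the promoters of many cytoskeleton genes, so SRF target genes report on actin assembly and on signals from growth factor receptors. In blood progenitor cells the non-muscle actins dominate, and Acta2 is best known from smooth muscle.

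Ba/F3 cells come from mouse pro-B cells and grow only with interleukin 3 (IL3) or a kinase that stands in for it. The 6 arrays, 1 per condition, held ETV6-PDGFRB cells with imatinib and untreated, FIP1L1-PDGFRA cells with imatinib and untreated, and empty-vector cells in IL3 with imatinib and untreated. All lines had received a pMSCV vector, and the fusion lines were selected for growth without IL3, while the vector cells stayed in IL3. Imatinib (Glivec), which blocks PDGF receptor kinases, was given at 100 nM for 4 h, and the medium held 10% serum. The sources used here do not say whether each line was a clone or a pool. The comparisons ask which transcripts follow the activity of the fusion kinase. Each condition had 1 array, so differences within a line were not checked in repeat cultures, and 6 arrays set the precision. Bulk signals cannot tell a change in the share of cells from a change in RNA per cell.

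Values are MAS5 signals on a linear scale. Signals below 20.1, the median of the arrays' 50th percentiles, were set to that floor, and a ratio was taken only where at least 1 of the arrays exceeded it. The signal ratio of the 3' to the 5' control probe set of Actb was 1.12 to 1.22 over the arrays. Of 16 fibroblast and smooth muscle markers, 0 exceeded the floor on any array, and their summed signal was 44.3 to 54.8 on the 4 fusion arrays and 52.8 to 59.2 on the vector arrays. Of 11 pro-B markers with a probe set, Cd79a, Cd79b, Igll1 and Ptprc exceeded the floor on at least 1 array, while Pax5, Ebf1, Il7r, Rag1, Rag2, Vpreb1 and Blnk were below it on all 6. The summed signal of 6 erythroid markers, 5 of them above the floor on every array, was 2653 and 2332 in ETV6-PDGFRB cells with imatinib and untreated, 2197 and 1435 in FIP1L1-PDGFRA cells, and 1618 and 1631 in vector cells. The summed signal of 8 myeloid markers, 2 of them above the floor, was 127 and 128, 239 and 335, and 382 and 365 in the same order. The part of these markers in the results on the members was not tested.

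The promoters are shown because the 10 genes are grouped through SRF. RefSeq windows (GRCm38.p6), from 250 bases before to 50 bases after the annotated start, were matched for 9 of the genes, all but Actb, with 2 windows for Tpm3. The CArG box consensus, which reads alike on both strands, was present in the windows of Actg1, Cnn2 and Vcl, against 1.63% of all 32851 windows. A form with 1 G or C inside the central A/T run was present in the windows of Acta2 and Tpm3, against 8.50% of all windows. The windows of Tagln2, Tpm4, Vim and Zyx held neither form. A match is a run of letters and not a shown binding site, and the genes were picked as SRF-linked, so their share is not independent evidence. In the sequences, given 5' to 3' on the gene's strand, capitals mark the CArG box or its form with 1 departure. Acta2, Cnn2 and Tpm4 are shown for their differences between arrays, and Actg1 and Vcl for their match.
Acta2, chr19:34255324-34255623, minus strand: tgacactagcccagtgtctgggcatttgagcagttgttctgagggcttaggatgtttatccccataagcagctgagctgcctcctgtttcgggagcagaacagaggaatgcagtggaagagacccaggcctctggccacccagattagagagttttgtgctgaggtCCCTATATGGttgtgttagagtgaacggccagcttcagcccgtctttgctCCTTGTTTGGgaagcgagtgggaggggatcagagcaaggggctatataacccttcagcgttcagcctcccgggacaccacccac
Cnn2, chr10:79988350-79988649, plus strand: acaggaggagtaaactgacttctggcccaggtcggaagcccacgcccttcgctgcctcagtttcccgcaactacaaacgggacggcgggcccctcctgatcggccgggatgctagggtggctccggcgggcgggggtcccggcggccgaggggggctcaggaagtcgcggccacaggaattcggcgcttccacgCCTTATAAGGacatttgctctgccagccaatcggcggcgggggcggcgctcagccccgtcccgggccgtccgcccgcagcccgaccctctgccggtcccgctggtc
Actg1, chr11:120348446-120348745, minus strand: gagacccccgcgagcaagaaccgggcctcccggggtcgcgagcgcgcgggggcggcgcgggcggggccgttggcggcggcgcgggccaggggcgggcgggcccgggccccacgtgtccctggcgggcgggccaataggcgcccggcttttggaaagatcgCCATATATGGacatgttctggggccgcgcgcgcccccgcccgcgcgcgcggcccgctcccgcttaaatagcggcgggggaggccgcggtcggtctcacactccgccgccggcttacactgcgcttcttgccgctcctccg
Vcl, chr14:20929148-20929447, plus strand: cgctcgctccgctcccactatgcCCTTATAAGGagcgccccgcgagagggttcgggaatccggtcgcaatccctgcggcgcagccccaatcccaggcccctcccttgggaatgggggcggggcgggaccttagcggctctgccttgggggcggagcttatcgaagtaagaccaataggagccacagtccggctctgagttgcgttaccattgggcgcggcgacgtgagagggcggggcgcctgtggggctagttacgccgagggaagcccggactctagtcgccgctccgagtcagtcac
Tpm4, chr8:72135038-72135337, plus strand: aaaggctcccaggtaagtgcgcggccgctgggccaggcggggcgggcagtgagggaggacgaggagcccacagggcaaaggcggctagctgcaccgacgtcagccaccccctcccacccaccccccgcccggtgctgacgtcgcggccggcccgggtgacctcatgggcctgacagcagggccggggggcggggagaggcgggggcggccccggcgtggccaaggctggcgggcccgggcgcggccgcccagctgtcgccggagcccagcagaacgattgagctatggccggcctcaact
In Cnn2 the box CCTTATAAGG began 56 bases before the start, and the same letters began 227 bases before the start of Vcl. In Actg1 the box CCATATATGG began 90 bases before it. Acta2 held 2 forms with a departure, CCCTATATGG at 84 and CCTTGTTTGG at 34 bases before the start.

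Among the actins, Acta2 set the ETV6-PDGFRB line apart. Probe set 1416454_s_at had signals of 298 with imatinib and 462 untreated in ETV6-PDGFRB cells, 39.8 and 56.2 in FIP1L1-PDGFRA cells, and 36.5 and 41.3 in vector cells. Both ETV6-PDGFRB arrays thus stood far above the other 4, which lay close together. Untreated ETV6-PDGFRB cells were 11.2-fold above untreated vector cells and 8.22-fold above untreated FIP1L1-PDGFRA cells. Over the floors, pseudocount and scalings tried, the log2 ratio to untreated vector cells lay between 3.06 and 3.48, so 11.2-fold is the upper end. After imatinib the level in ETV6-PDGFRB cells was still 8.15-fold that of treated vector cells. The signal was lower with imatinib in each line, with log2 ratios of -0.63 in ETV6-PDGFRB, -0.50 in FIP1L1-PDGFRA and -0.18 in vector cells. The limma fit across the fusion lines, described below, gave a log2 change of -0.57 ± 0.11 (SE, n = 2 lines).

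The suffix _s_at marks a probe set whose probes can match transcripts of more than 1 gene. The other muscle actin genes Acta1, Actc1 and Actg2 were below the floor on all 6 arrays, with signals of at most 15.1, 7.11 and 8.44. The second Acta2 probe set, 1456658_at, was below the floor on every array as well, at 0.461 to 8.16, so the difference between the lines rests on a single probe set. Smooth muscle genes that usually accompany Acta2, namely Tagln, Cnn1, Myh11, Des and Lmod1, were below the floor in ETV6-PDGFRB cells as in the others.

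The cytoplasmic actins differed little between the arrays. Actb, probe set 1436722_a_at, had signals of 4054 with imatinib and 4317 untreated in ETV6-PDGFRB cells, 3637 and 3602.5 in FIP1L1-PDGFRA cells, and 4104 and 3762 in vector cells. The log2 ratios for imatinib were -0.09, 0.01 and 0.13 in that order of lines, and the small positive value in FIP1L1-PDGFRA cells turned to -0.26 with hybridization control scaling. The 3 control probe sets of Actb ranged from 3195 to 4743, with ratios of -0.20 to -0.12, -0.07 to 0.06 and 0.00 to 0.05. Actg1, on 1415779_s_at, had 4113 and 4934, 3834 and 4110.2, and 4456 and 4721, with log2 ratios of -0.26, -0.10 and -0.08. All 6 arrays lay within 1.20-fold of each other for Actb on 1436722_a_at and within 1.29-fold for Actg1.

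A weaker Actb probe set, 1419734_at, behaved differently. It had 135 and 149 in ETV6-PDGFRB cells, 118 and 81.1 in FIP1L1-PDGFRA cells, and 151 and 161 in vector cells. The low array was that of untreated FIP1L1-PDGFRA cells, which gave a log2 ratio of 0.54 for imatinib in that line against -0.14 and -0.09 in the ETV6-PDGFRB and vector lines. The main probe set and the 3 control probe sets of the same gene showed no such step.

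**Figure D1:**
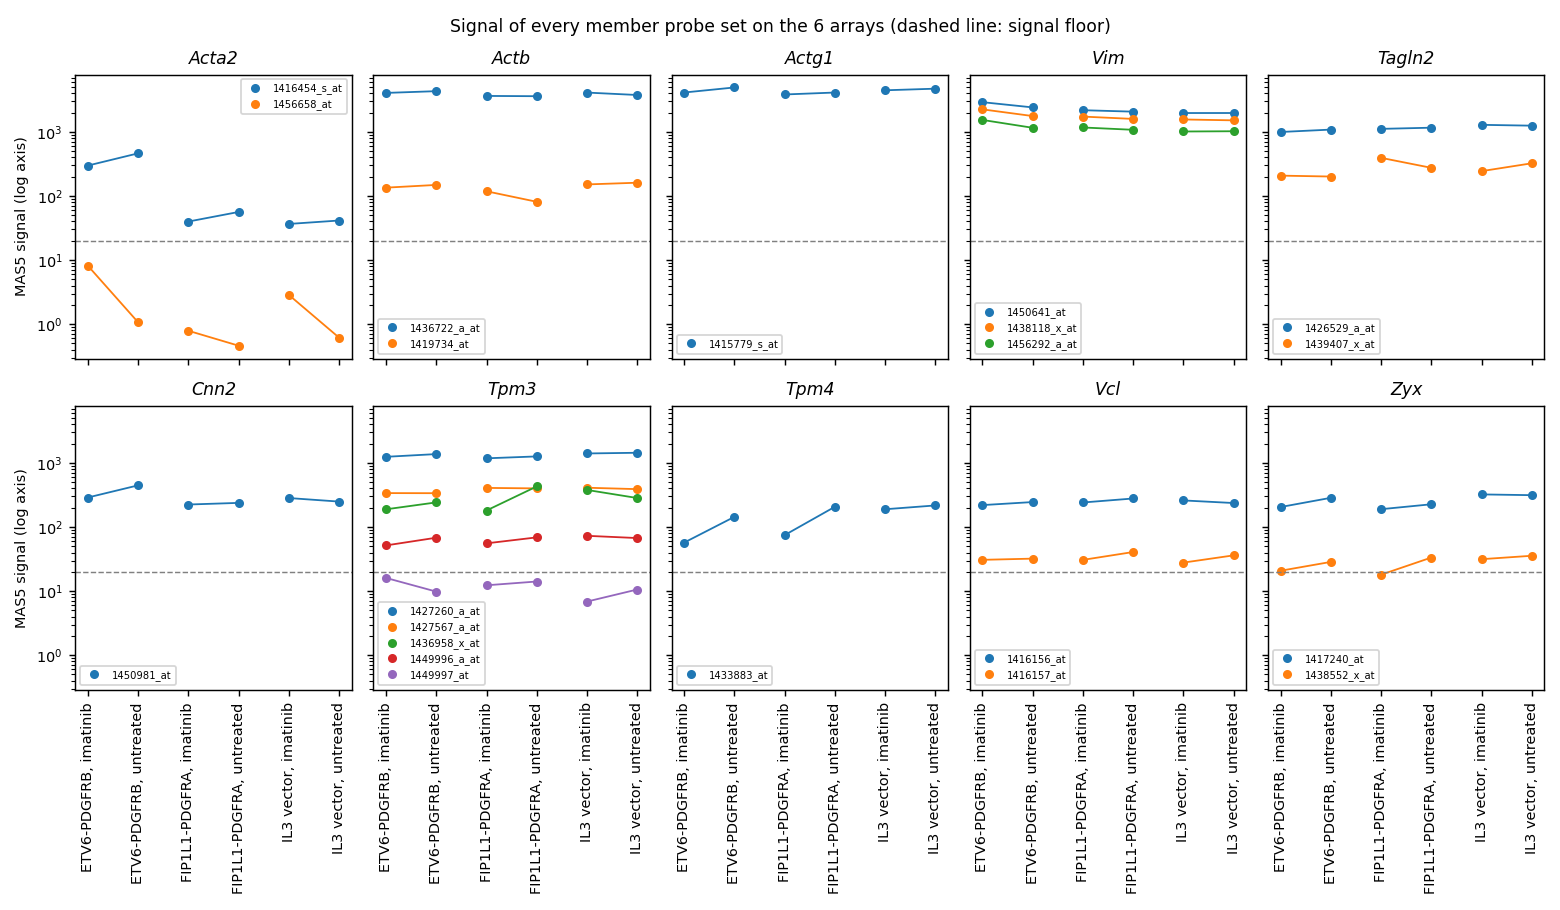
MAS5 signal on a log axis for each of the 21 member probe sets, 1 panel per gene, on the 6 arrays, with a line joining the imatinib and untreated array of a cell line and a dashed line at the floor of 20.1. The Acta2 probe set 1416454_s_at reads 298 and 462 in ETV6-PDGFRB cells and at most 56.2 elsewhere, and Tpm4 is lowest on the 2 arrays of fusion cells with imatinib.

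Tpm4 had the largest response to imatinib among the members of both fusion lines. It encodes a short non-muscle tropomyosin. Its probe set 1433883_at had signals of 57.3 with imatinib and 144 untreated in ETV6-PDGFRB cells, 74.9 and 207 in FIP1L1-PDGFRA cells, and 189.6 and 217 in vector cells. The 2 treated fusion arrays lay below all 4 others. The treated level was 2.52-fold lower in ETV6-PDGFRB, 2.77-fold lower in FIP1L1-PDGFRA and 1.15-fold lower in vector cells. The log2 ratios were -1.34, -1.47 and -0.20. Over the floors, pseudocount and scalings tried, the ratio lay between -1.52 and -1.13 in ETV6-PDGFRB cells and between -1.74 and -1.30 in FIP1L1-PDGFRA cells. The limma log2 change was -1.40 ± 0.11 (SE, n = 2 lines). In untreated cells the log2 ratio of Tpm4 to vector cells was -0.59 in the ETV6-PDGFRB line. It was -0.07 in the FIP1L1-PDGFRA line, and 0.08 there with hybridization control scaling.

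Tpm3, the gene of another non-muscle tropomyosin, had 5 probe sets that did not move alike. The brightest, 1427260_a_at, had 1248 and 1376 in ETV6-PDGFRB cells, 1182 and 1265 in FIP1L1-PDGFRA cells, and 1407 and 1443 in vector cells, with log2 ratios of -0.14, -0.10 and -0.04. For 1427567_a_at the fusion line ratios of 0.01 and 0.02 became -0.18 and -0.25 under hybridization control scaling. The dim 1449996_a_at had ratios of -0.40, -0.31 and 0.12, with signals of 51.7 and 68.2, 55.7 and 69.0, and 73.0 and 67.3.

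The remaining Tpm3 probe set above the floor, 1436958_x_at, was the most variable. Its suffix marks probes that may cross-hybridise with other sequences. It had 189 and 242 in ETV6-PDGFRB cells, 181 and 430.0 in FIP1L1-PDGFRA cells, and 379 and 284 in vector cells, giving log2 ratios of -0.36, -1.25 and 0.42. The ratios of the other Tpm3 probe sets above the floor lay between -0.40 and 0.12. The last, 1449997_at, was below the floor on every array, at 6.87 to 16.1. Among the related genes Tpm1 had signals of 140 to 210.3 on 1423049_a_at and 211 to 274 on 1423721_at. Its probe set 1456623_at and all 4 probe sets of Tpm2 were below the floor.

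Cnn2, a calponin gene of non-muscle cells, was higher in untreated ETV6-PDGFRB cells than elsewhere. Probe set 1450981_at had 289 with imatinib and 447 untreated in ETV6-PDGFRB cells, 225 and 238 in FIP1L1-PDGFRA cells, and 284 and 249.7 in vector cells. The untreated ETV6-PDGFRB array was the highest, and the treated array of that line came next, close to the treated vector array. The untreated difference was 1.79-fold over vector cells, and the treated difference 1.02-fold. The log2 ratios for imatinib were -0.63, -0.08 and 0.18. Like Acta2, Cnn2 was high in untreated ETV6-PDGFRB cells. It differed in that its treated level, 289, came down close to the 284 of treated vector cells. That level was still above untreated vector cells (249.7) and treated FIP1L1-PDGFRA cells (225).

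Tagln2, which encodes an actin-binding relative of transgelin, had 996 and 1085 in ETV6-PDGFRB cells, 1114 and 1162 in FIP1L1-PDGFRA cells, and 1287 and 1249 in vector cells on 1426529_a_at. Its log2 ratios for imatinib were -0.12, -0.06 and 0.04. The dimmer 1439407_x_at had 207 and 201, 393 and 275, and 244 and 323, with ratios of 0.05, 0.52 and -0.41. The 2 probe sets thus gave opposite signs in all 3 lines, except that in ETV6-PDGFRB cells both were negative with hybridization control scaling (-0.14 for 1439407_x_at) or scaling to the mean.

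Of the adhesion genes, Zyx was lower after imatinib in both fusion lines. Zyxin is a LIM protein of focal adhesions and stress fibres. Probe set 1417240_at had 205 and 286 in ETV6-PDGFRB cells, 189.95 and 227 in FIP1L1-PDGFRA cells, and 323 and 314 in vector cells. All 4 fusion arrays lay below the vector arrays, and the treated ones lay lowest. The log2 ratios were -0.48, -0.25 and 0.04, with a limma log2 change of -0.37 ± 0.10 (SE, n = 2 lines). The second probe set, 1438552_x_at, had 20.8 and 28.6, 18.1 and 33.4, and 31.5 and 35.6, and since 18.1 is below the floor its log2 ratio in FIP1L1-PDGFRA cells was -0.74 or lower, beside -0.46 in ETV6-PDGFRB and -0.18 in vector cells.

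Vcl, the vinculin gene, differed little. Probe set 1416156_at had 220.1 and 245 in ETV6-PDGFRB cells, 242 and 279 in FIP1L1-PDGFRA cells, and 260.3 and 237 in vector cells, with log2 ratios of -0.16, -0.21 and 0.14. The dim probe set 1416157_at, at 27.9 to 40.7, gave -0.06, -0.41 and -0.38. In vector cells the 2 probe sets had opposite signs.

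Vim, the gene of the intermediate filament protein vimentin, was the member gene with the largest positive log2 ratios for imatinib in ETV6-PDGFRB cells. On 1450641_at it had 2907 with imatinib and 2409 untreated in ETV6-PDGFRB cells, 2178 and 2067 in FIP1L1-PDGFRA cells, and 1967 and 1969 in vector cells. All 3 probe sets were highest on the treated ETV6-PDGFRB array. Their log2 ratios were 0.27 to 0.41 in ETV6-PDGFRB, 0.07 to 0.12 in FIP1L1-PDGFRA and -0.01 to 0.05 in vector cells. In FIP1L1-PDGFRA cells the sign depended on the scaling, with -0.20 to -0.15 under hybridization control scaling. The same scaling lowered the ETV6-PDGFRB ratios to 0.09 to 0.22. Treated ETV6-PDGFRB cells exceeded treated vector cells by 0.52 to 0.60 on the log2 scale.

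**Figure D2:**
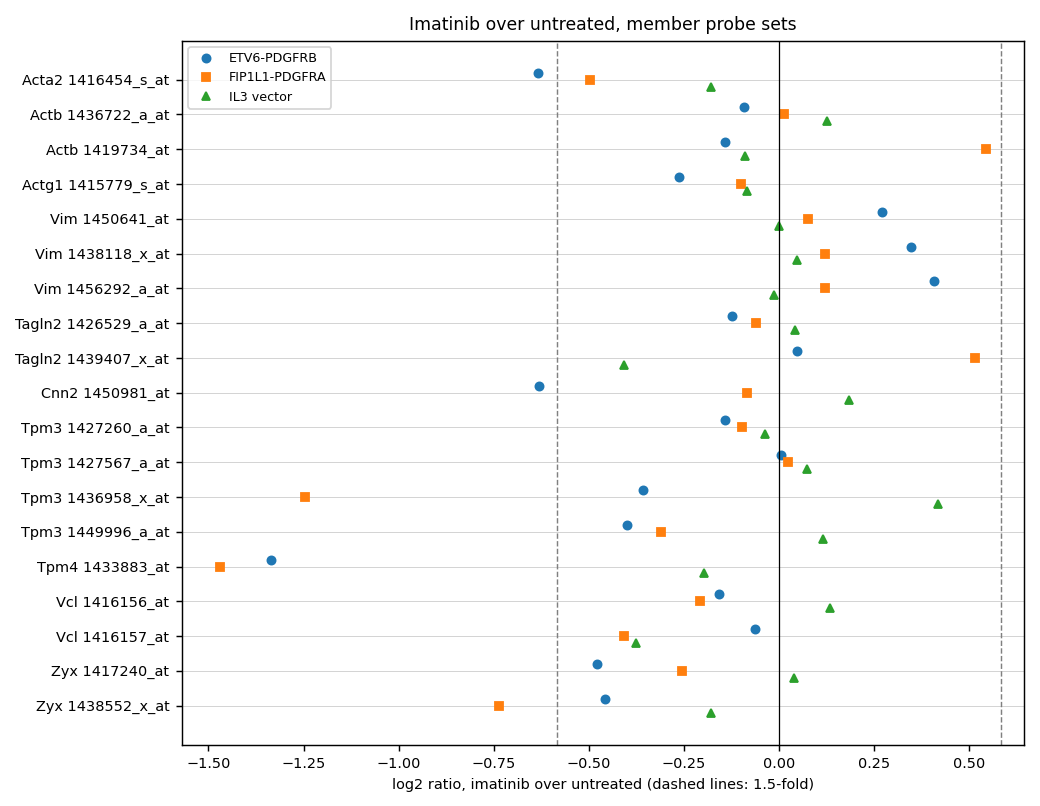
The log2 ratio of imatinib over untreated for the 19 member probe sets above the floor, with circles for ETV6-PDGFRB, squares for FIP1L1-PDGFRA and triangles for vector cells, and dashed lines at 1.5-fold. Tpm4 lies at -1.34 and -1.47 in the fusion lines and -0.20 in vector cells, and the 3 Vim probe sets lie at 0.27 to 0.41 in ETV6-PDGFRB cells.

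Of the 21 member probe sets, 19 exceeded the floor on at least 1 array and have ratios. In ETV6-PDGFRB cells 3 of 19 were past 1.5-fold lower with imatinib, namely those of Acta2, Cnn2 and Tpm4, against 9.49% of all 11900 probe sets measured. None was past 1.5-fold higher, against 8.38%, and past 2-fold the counts were 0 higher and 1 lower (Tpm4), against 1.55% and 2.90%. In FIP1L1-PDGFRA cells 3 of 19 were past 1.5-fold lower, namely Tpm4, Tpm3 1436958_x_at and Zyx 1438552_x_at, against 9.33%, and 0 were higher, against 8.10%. Past 2-fold 0 were higher and 2 lower (Tpm4 and Tpm3 1436958_x_at), against 1.77% and 3.05%. Past 1.5-fold lower in both fusion lines was 1 of 19, Tpm4, against 5.51% of the 11470 probe sets measured in both, which is near that share. In vector cells 0 of 19 were past 1.5-fold in either direction, against 1.10% higher and 0.742% lower, or 0.104% and 0.069% past 2-fold. The genes were chosen with these responses known, so nothing is read from the shares. The median log2 ratio of the 19 was -0.14, -0.10 and -0.00 in the ETV6-PDGFRB, FIP1L1-PDGFRA and vector lines, beside 0.03, 0.04 and 0.00 over all probe sets.

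In the limma fit the fusion lines served as repeats, with the line as a block and the difference of the vector pair counted as spread. Of 11845 probe sets, 1159 rose and 1297 fell at an adjusted p under 0.05, that is 9.78% and 10.9%. With hybridization control scaling the split was 489 and 2955. Among the 19 members 3 were past that threshold and lower, namely Tpm4, Acta2 1416454_s_at and Zyx 1438552_x_at, and 0 were past it and higher. This Zyx probe set is the dim one, whose signal in treated FIP1L1-PDGFRA cells was set to the floor. The brighter Zyx 1417240_at was not past the threshold. At an unadjusted limma p under 0.05, 6 of the 19 were lower and 0 higher, against 2204 lower and 2410 higher of all 11845 probe sets. These counts describe the arrays and support nothing, for the reason given. A limma contrast of the fusion response with that of the vector pair called 0 of 11845 probe sets in either direction, with 1787 at an unadjusted p under 0.05. No response was thus shown to be particular to the fusion cells. This contrast had 1 residual degree of freedom, so it does not show the responses to be alike either. Without either fusion line the limma fit had 1 residual degree of freedom and called 0 probe sets at the adjusted threshold, members and listed genes included, which says nothing about their stability.

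Between untreated lines, 2 of 19 members were past 1.5-fold higher in ETV6-PDGFRB than in vector cells, Acta2 and Cnn2, against 6.10% of all probe sets, and Acta2 alone was past 2-fold, against 2.02%. Tpm4 and Tagln2 1439407_x_at were past 1.5-fold lower, against 4.41%, and 0 past 2-fold, against 0.867%. In untreated FIP1L1-PDGFRA cells Tpm3 1436958_x_at was past the limit higher than in vector cells, against 3.94%, and Actb 1419734_at lower, against 2.54%. None was past 2-fold in that line, against 1.59% higher and 0.292% lower. Both sets of ratios share the untreated vector array, and IL3 supply, selection and fusion gene cannot be told apart in them.

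With imatinib, 4 of 19 members were past 1.5-fold lower in ETV6-PDGFRB cells than in treated vector cells, against 11.7%, and 4 of 19 in FIP1L1-PDGFRA cells, against 8.89%. In both lines these were Tpm4, Tpm3 1436958_x_at and the 2 probe sets of Zyx, and the comparisons share the treated vector array. For Tpm4 the log2 ratio was -1.73 in the ETV6-PDGFRB line and -1.34 in the FIP1L1-PDGFRA line, and that of Zyx 1417240_at was -0.65 and -0.77. Acta2 and Vim 1456292_a_at were past the limit higher in treated ETV6-PDGFRB cells, against 13.1%, and Tagln2 1439407_x_at in treated FIP1L1-PDGFRA cells, against 7.72%.

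Set directly against untreated FIP1L1-PDGFRA cells, untreated ETV6-PDGFRB cells had 3 of 19 member probe sets past 1.5-fold higher (Acta2, Cnn2 and Actb 1419734_at), against 4.69% of all, and 1 lower (Tpm3 1436958_x_at), against 3.56%. The log2 ratios were 3.04 for Acta2 and 0.91 for Cnn2. With imatinib in both lines Acta2 was still past the limit higher (2.90), against 4.25%, and Tagln2 1439407_x_at lower (-0.92), against 3.26%. Cnn2 had a ratio of 0.36 between the treated lines. The other members, Tpm4 (-0.39) and Vim (0.37 to 0.42) among them, stayed within 1.5-fold between the treated fusion lines.

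**Figure D3:**
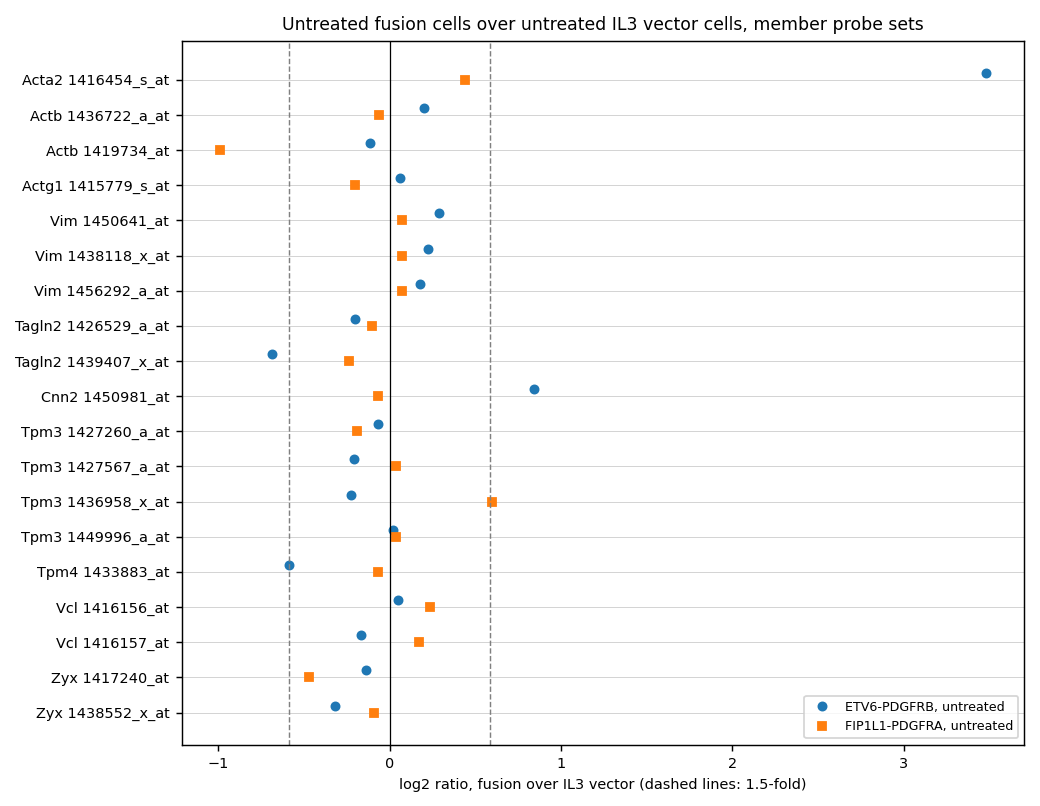
The log2 ratio of untreated fusion cells over untreated vector cells for the 19 member probe sets above the floor, with circles for ETV6-PDGFRB, squares for FIP1L1-PDGFRA and dashed lines at 1.5-fold. Acta2 lies at 3.48 in the ETV6-PDGFRB line and 0.44 in the FIP1L1-PDGFRA line, and Cnn2 at 0.84 and -0.07.

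The SRF gene itself fell with imatinib in fusion cells. The lists of other genes, like the members, were written with earlier results of these arrays known, so the limma p-values of listed genes, adjusted over all probe sets, are not independent evidence. Srf, on 1418255_s_at, had 59.7 with imatinib and 167 untreated in ETV6-PDGFRB cells, 69.7 and 167 in FIP1L1-PDGFRA cells, and 131 and 133 in vector cells. Its log2 change was -1.37 ± 0.10 (SE, limma adjusted p = 0.00566). The second Srf probe set, 1418256_at, had 15.96 and 55.8, 20.6 and 69.7, and 49.96 and 52.3. In the list of SRF, its cofactors and known SRF targets, 5 of 12 genes tested fell and 3 rose. Of all probe sets, 10.9% fell and 9.78% rose. The list's median log2 ratios were -0.32 and -0.46 in the ETV6-PDGFRB and FIP1L1-PDGFRA lines and 0.02 in vector cells. They cover the 11, 12 and 9 genes with a ratio in each line, so they are not medians of the same genes. With hybridization control scaling 6 listed genes fell and 2 rose, beside 2955 and 489 of all 11794 probe sets. Besides Srf, the immediate early genes Ier2 (-1.42 ± 0.16, limma adjusted p = 0.011), Junb (-1.05 ± 0.09, adjusted p = 0.00696), Fos and Egr2 fell. The signals of Fos and Egr2 were below the floor in both fusion lines with imatinib. Both genes were also below it on the vector arrays, so they have no ratio there. Elk3, a ternary complex factor of SRF, rose by 0.67 ± 0.11 (limma adjusted p = 0.0209), as did its relative Elk4 and Cdc42ep3, which was below the floor in untreated FIP1L1-PDGFRA cells.

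Most of the listed genes did not pass the test. Over all 6 lists 18 of 137 entries rose, 11 fell and 108 did not pass. Of all probe sets 9.78% rose and 10.9% fell. The totals include the SRF list, where 3 of 12 rose and 5 fell, and its immediate early genes are not cytoskeleton genes. With hybridization control scaling the split over all 6 lists was 7 and 39, with scaling to the mean of all probe sets 14 and 15. The lists count 1 probe set per gene, unlike the shares over all probe sets. In a fit with 1 probe set per gene, 24 entries rose and 13 fell, beside 917 and 840 of 6815 probe sets. Genes of actin filament turnover rose in 4 of 36 cases (Wasl, Twf2, Coro1b and Gsn) and fell in 4 (Enah, Capza2, Wdr1 and Dstn), against 1 and 11 with hybridization control scaling. Wasl was below the floor in both untreated fusion lines. Enah, an elongation factor of actin filaments, fell by 0.73 ± 0.13 on the log2 scale (limma adjusted p = 0.0261), and Capza2, a filament capping subunit, fell by 0.55 ± 0.10 (adjusted p = 0.0277). Twf2, which encodes a monomer-binding twinfilin, rose by 0.53 ± 0.10 (adjusted p = 0.0266) and the coronin gene Coro1b by 0.50 ± 0.09 (adjusted p = 0.0266). The list's median log2 ratio was -0.00 and -0.02 in the ETV6-PDGFRB and FIP1L1-PDGFRA lines, over 36 and 35 genes with a ratio.

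Among adhesion and LIM protein genes 6 of 28 rose and 1 fell, beside 9.78% and 10.9% of all probe sets. With hybridization control scaling 2 rose and 7 fell, beside 489 and 2955 of all 11794 probe sets. Pdlim5, a PDZ and LIM protein of the actin cytoskeleton, fell by 0.85 ± 0.11 (limma adjusted p = 0.0137), with 544 and 1090.1 in ETV6-PDGFRB cells, 675 and 1096 in FIP1L1-PDGFRA cells, and 967 and 905 in vector cells. Git2, an ARF GTPase activator of adhesion sites, rose by 0.85 ± 0.10 (adjusted p = 0.011), the paxillin gene Pxn by 0.56 ± 0.11 (adjusted p = 0.0334) and the LIM gene Lasp1 by 0.54 ± 0.09 (adjusted p = 0.0206). Itga4, Fermt3 and Fblim1 rose as well, and Itga4 was below the floor in untreated FIP1L1-PDGFRA cells. The list's median log2 ratios were 0.08, 0.01 and 0.02 in the ETV6-PDGFRB, FIP1L1-PDGFRA and vector lines, over 28, 28 and 26 genes. Zyx and Pdlim5 were lower and Pxn and Lasp1 higher after imatinib in the same cells.

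Crosslinkers, myosins and other contractile genes rose in 2 of 22 cases and fell in 0 by limma, beside 9.78% and 10.9% of all probe sets. At an unadjusted limma p under 0.05 the counts were 6 and 1. Hybridization control scaling turned the adjusted counts to 0 and 5. The genes were Myo9b (0.57 ± 0.10, adjusted p = 0.0215) and the cytokinesis gene Anln (0.44 ± 0.09, adjusted p = 0.0312), and the list's median log2 ratios were 0.13, 0.12 and 0.09. Among tubulins, lamins and other intermediate filament genes 2 of 15 rose and 0 fell by limma, beside the same shares. At an unadjusted limma p under 0.05 the counts were 5 and 0. Under hybridization control scaling the adjusted counts were 1 and 3. Tubb2a rose by 0.92 ± 0.11 (adjusted p = 0.0116) and Stmn1, a tubulin-binding protein gene, by 0.39 ± 0.09 (adjusted p = 0.0461), and the medians were 0.07, 0.21 and -0.02. With hybridization control scaling Twf2, Coro1b, Myo9b, Anln, Pxn, Lasp1 and Stmn1 no longer passed the test.

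**Figure D4:**
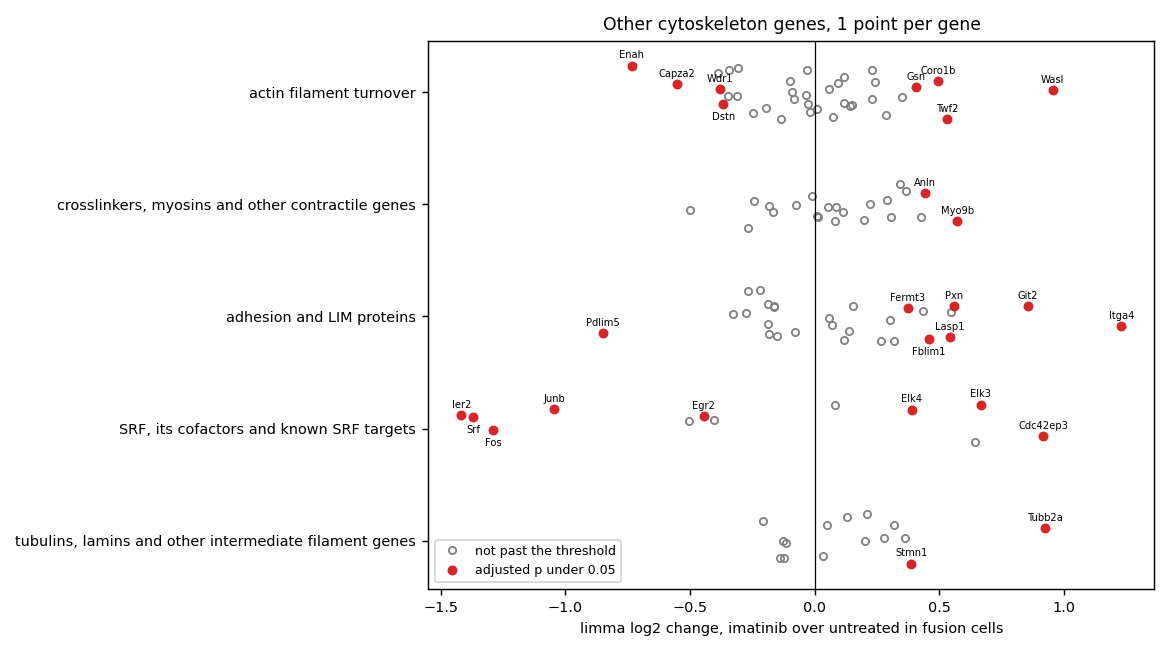
The limma log2 change of imatinib over untreated in fusion cells for each tested gene of the 5 lists described, 1 point per gene, with filled red points for an adjusted p under 0.05 and gene names beside them. Srf (-1.37), Ier2 (-1.42) and Junb (-1.05) lie at the left of their list, while the other lists spread around 0.

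The genes whose pattern over the 6 arrays was most like that of a member were sought among 2466 genes above the floor on all arrays that varied by an SD of at least 0.25 on the log2 scale. The points share the arrays of 3 lines, so Pearson's r is a description only. For Tpm4 these were Pdcd1lg2 (r = 0.999), Hemk1 (0.998) and Socs6 (0.996). For Acta2 they were Prepl (0.985), Etfbkmt (0.982) and Lmo2 (0.977). For Zyx they were Rpp14 (0.996), Tbrg4 (0.99) and Mgat2 (0.983), and for Cnn2 Trim23 (0.952), Abhd16a (0.942) and Tmem214 (0.94). The other 6 member genes varied by less than that SD on their brightest probe set.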

How the data were processed

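RNA of 6 samples was hybridised to 1 array each. The authors deposited linear intensity values, computed in MAS5 (GCOS 1.4.0) as the submitters' processing notes name them. Background settings are not given in the sources used here. After trimming 2% at each end, each array had a mean of 100.0. Gene names came from the platform annotation, where 20393 probe sets had 1 symbol, 691 several and 1606 none, and 0 symbols changed through the RefSeq gene table. No genome build is named for the array files.

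Signals were floored at the 50th percentile (20.1) and taken to log2. Ratios use probe sets above the floor on at least 1 of 2 arrays and were counted past 1.5-fold. Hybridization control scaling sets each array to the mean log2 signal of its 18 hybridization control probe sets. limma 3.58.1 (R 4.3.3; Python 3.11.15, numpy 2.4.6, pandas 2.3.3) was fitted over 11845 non-control probe sets above the floor on at least 2 arrays, with the line as a block, 2 residual and 2.92 prior degrees of freedom, and Benjamini-Hochberg adjustment. Its p-values measure spread between lines and within the vector pair, and signals set to the floor make SE and p too small. In the 6 lists of other genes, 198 of 228 symbols had a probe set (the brightest was used), and the genes named are the 4 largest changes per list past the threshold with the same sign in both fusion lines and signals above the floor on all 4 fusion arrays. Of the 6 lists, 1 counts in the totals and is not reported here by itself. Other listed genes past the threshold were named after their values were seen. The members and lists were chosen with earlier results of these data known. Neighbours in pattern are the 3 genes with the highest r for each member with an SD of at least 0.25. Alternatives were other floors, a pseudocount, 3 scalings, a 2-fold limit, 1 probe set per gene and other fits.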

Additional observations from a re-analysis of the deposited data

Results flagged for a closer look

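For 4 probe sets the log2 ratio of imatinib over untreated had opposite signs in 2 lines and differed by more than 1.5-fold. With 1 array per condition these differences were not tested. Tpm3 1436958_x_at gave -1.25 in FIP1L1-PDGFRA and 0.42 in vector cells, a difference of -1.67, and -0.36 in ETV6-PDGFRB cells, a difference of -0.78 from the vector cells. Tagln2 1439407_x_at gave 0.52 in FIP1L1-PDGFRA and -0.41 in vector cells, a difference of 0.92. Cnn2 1450981_at gave -0.63 in ETV6-PDGFRB and 0.18 in vector cells, a difference of -0.81. Actb 1419734_at gave -0.14 in the ETV6-PDGFRB line and 0.54 in the FIP1L1-PDGFRA line, a difference of -0.69, and the FIP1L1-PDGFRA value lay 0.63 above the -0.09 of the vector cells. For Tpm3, Tagln2 and Actb the brightest probe set of the gene showed no such difference.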

How the results depend on the processing

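Hybridization control scaling moved the median log2 ratio of all probe sets for imatinib to -0.15 in ETV6-PDGFRB cells and to -0.23 in the FIP1L1-PDGFRA line, beside 0.03 and 0.04 as deposited, so small changes of members are relative to the scaling. No member past 1.5-fold reversed under any floor, pseudocount or scaling tried, and 540 recomputed member ratios moved by less than 0.21, the SD of the vector pair's log2 ratios over all probe sets, while 19 moved further. Nearly all of the latter were imatinib ratios in FIP1L1-PDGFRA cells under hybridization control scaling. There every member probe set with a ratio moved further except Zyx 1438552_x_at. The remaining ratio was that of Acta2 in untreated ETV6-PDGFRB over vector cells, 3.48 as deposited and 3.06 with the pseudocount. The limma count of all probe sets that rose, 1159, and fell, 1297, became 489 and 2955 with hybridization control scaling, 618 and 846 with the floor lowered to the 40th percentile, and 454 and 697 without the line block. With the 4 fusion arrays alone 744 of 11620 probe sets rose, beside 1159 of 11845. With 1 probe set per gene 840 fell, but of 6815 probe sets tested, beside 1297 of 11845. For the other cytoskeleton genes, 18 rose and 11 fell, against 7 and 39 with hybridization control scaling, 10 and 7 with the lower floor, 11 and 7 with the fusion arrays alone, and 4 and 6 without the line block. Members past the limma threshold and lower, 3 of 19 beside 1297 of 11845 probe sets, became 10 of 19 with hybridization control scaling, beside 2955 of 11794. They became 5 of 19 with scaling to the mean, beside 1520 of 11817, and 1 of 20 with the lower floor, beside 846 of 14423. Leaving out either fusion line left 1 residual degree of freedom and took each of these limma counts to 0 (0 to 0), with 3429 probe sets at an unadjusted p under 0.05 without ETV6-PDGFRB and 3670 without FIP1L1-PDGFRA. With so few degrees of freedom this says nothing about the stability of the calls.

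Of the 19 member probe sets, the 3 past 1.5-fold lower with imatinib in ETV6-PDGFRB became 1 past 2-fold, against 2.90% of all. The 3 in FIP1L1-PDGFRA became 5 with hybridization control scaling, where the median log2 ratio of all probe sets in that line was -0.23. They became 1 of 10 with the brightest probe set per gene. The 0 higher in ETV6-PDGFRB became 1 with the lower floor. That call came from a probe set outside the 19, below the main floor on every array. The highest such ratio among the 19 under any floor, pseudocount or scaling was 0.41 on the log2 scale, for Vim 1456292_a_at. For untreated ETV6-PDGFRB over vector cells, the 2 higher became 1 past 2-fold, and the 2 lower became 1 with the pseudocount, 0 past 2-fold and 1 with the brightest probe set. For untreated FIP1L1-PDGFRA over vector cells, the 1 higher became 0 with the pseudocount, 2 with hybridization control scaling, 0 with quantile normalization, 0 past 2-fold and 0 with the brightest probe set, and the 1 lower became 0 past 2-fold and 0 with the brightest probe set. Each count with the brightest probe set is of 10 probe sets. The shares of all probe sets past 2-fold are given above. Those past 1.5-fold under the other settings are not given, so nothing is read from these counts. The cause of these shifts was not tested. Among the 18 named genes of the lists, 7 lost their call with hybridization control scaling, 7 with the lower floor, 5 with the fusion arrays alone and 11 without the line block. The labels give no replicate numbers; the line block pairs the 2 arrays of each line, and the fit without it is given above.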
